A study of Arabidopsis thaliana with 8 samples.

Results

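The comparison described here sets the genotype pat1-1path2-1 against path1-4path2-1 in Arabidopsis thaliana, by the genotype given in the sample labels, and takes 6 of the 24 RNA sequencing libraries of the study, 3 of each genotype. Both genotypes carry path2-1, and all 8 genotypes of the study carry summ2-8, so the pair differs in which further gene is mutated, PAT1 in the first and PATH1 in the second. Genotypes are named below without summ2-8, and summ2-8 alone is called the control. Plants were 6 weeks old and had grown at 21 °C with 8 hours of light and 16 hours of dark, in pots of 1 of 2 sizes that the labels do not assign to genotypes. The tissue was everything above ground, and the labels do not say how many plants went into a library, so the p-values measure the spread between these libraries. All 20346 expressed genes of the 37336 listed were compared, where expressed means past the edgeR filter on low counts.

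PAT1, PATH1 and PATH2 are paralogs of the PAT1 family. PAT1 proteins bind the LSM1-7 ring on shortened messenger RNAs and recruit the decapping enzyme, after which the RNA is degraded from its 5′ end. SUMM2 is an immune receptor that triggers cell death and dwarfism when a mitogen-activated protein kinase cascade that includes MPK4 is disturbed, and its mutation allows loss of PAT1 to be studied without that response. The study set out to find genes behind the developmental programs that these proteins regulate.

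The 6 libraries held 20.1 to 39.2 × 1e6 counts. On principal components of the 6 libraries, PC1 took 51.6% of the variance and separated the genotypes; PC2 separated path1-4path2-1 replicate 2 from replicate 1 of the same genotype. Pearson correlations of log2 CPM (counts scaled to 1e6 per library) over genes were 0.988 to 0.994 within a genotype and 0.979 to 0.985 between the genotypes. Leaf markers were at 52830 to 65760 CPM in sum, against 0 to 0.123 CPM for the seed markers and 0 for the pollen marker VGD1. The root hair genes RHD6 and RSL4 were at 0 counts in all 6 libraries, and the 6 floral genes summed to 0.825 to 1.36 CPM. Root markers summed to 44.2 to 59.1 CPM in pat1-1path2-1 and to 26.8 to 38.3 CPM in path1-4path2-1, nearly all of it PYK10 and NAI2, and neither of the 2 was called.

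A gene is called when its edgeR quasi-likelihood test has a Benjamini-Hochberg adjusted p below 0.05 over all genes tested. Between the double mutants 3722 genes were called, 18.3% of those tested. Of these, 1895 (9.31% of genes tested) were higher in pat1-1path2-1 and 1827 (8.98%) were lower. Most differences were small. The median size among called genes was 0.42 on the log2 scale, 2634 called genes differed by less than 1.5-fold, 402 by more than 2-fold and 65 by more than 4-fold. The 3 libraries of 1 genotype all lay beyond the 3 of the other for 3639 of the called genes. The same held for 8417 of all 20346 genes tested, called or not. Leaving out 1 library lowered the count to 2006 without pat1-1path2-1 replicate 1, to 2198 without its replicate 2 and to 2040 without path1-4path2-1 replicate 3. Without these 3 libraries the higher calls were 1104, 1215 and 1068 and the lower calls 902, 983 and 972, and without pat1-1path2-1 replicate 3 the lower calls were 1199. The calls that held in the same direction under all 12 alternatives, including each of the 6 fits without 1 library, numbered 1379, or 6.78% of genes tested, 793 higher and 586 lower. Genes named below passed all 12 alternatives unless the text says that the call ended, and the cell type markers were not followed through the alternatives.

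**Figure D1:**
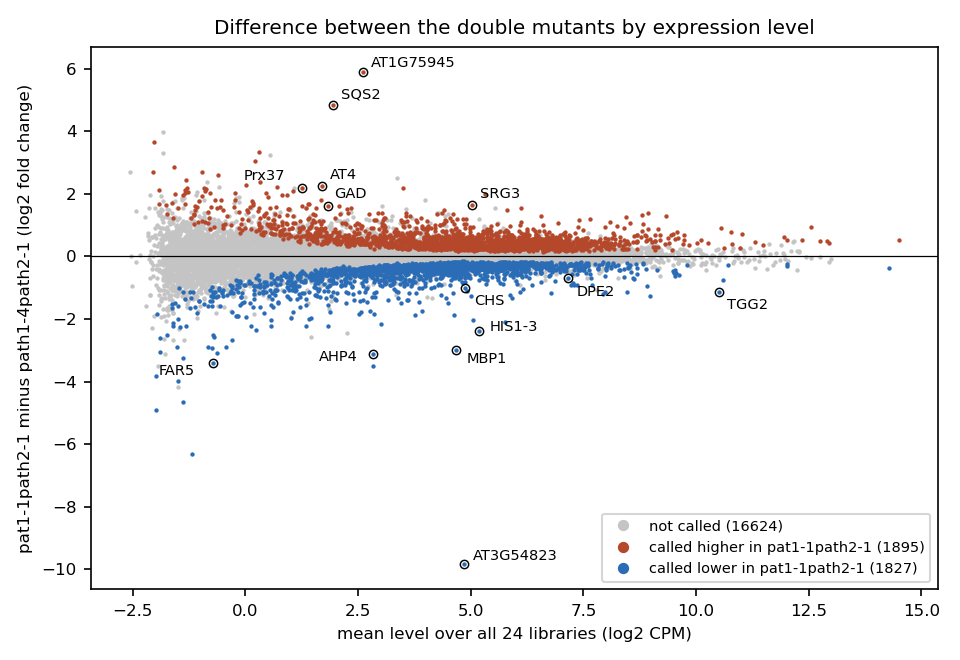
Each point is 1 of 20346 genes, with its mean level over all 24 libraries on the horizontal axis (log2 CPM) and the log2 fold change between the double mutants on the vertical axis; 1895 genes are called higher in pat1-1path2-1 and 1827 lower. Circled genes are described in the text, from AT1G75945 (5.90) and SQS2 (4.83) at the top to AT3G54823 (-9.84) at the bottom.

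Against the control, pat1-1path2-1 had 6631 called genes (32.6% of those tested) and path1-4path2-1 had 3958 (19.5%), and both comparisons use the same 3 control libraries. Of the 1895 genes higher in pat1-1path2-1, 994 (52.5%) were called above the control in pat1-1path2-1 and not called in path1-4path2-1. Another 332 (17.5%) were not called in pat1-1path2-1 and called below the control in path1-4path2-1, and 418 (22.1%) were called in neither. Of the 1827 lower genes, 896 (49%) were called below the control in pat1-1path2-1 and not called in path1-4path2-1. A further 280 (15.3%) were called above it in path1-4path2-1 and not called in pat1-1path2-1, and 416 (22.8%) in neither. The 2 genotypes were called on opposite sides of the control for 30 higher and 10 lower genes.

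Of the 4 mutated genes, PAT1 and PATH1 differed between the doubles and PATH2 and SUMM2 were not called. PAT1 RNA was at 43.3, 43 and 43 CPM in pat1-1path2-1 and at 55.2, 53.6 and 59.3 CPM in path1-4path2-1, with no overlap. Its log2 fold change was -0.38 ± 0.10 (SE, n = 3 against 3, adjusted p = 0.0108), and the call ended without path1-4path2-1 replicate 3 (adjusted p = 0.0547). PATH1 RNA was at 89.4, 78.1 and 80.1 CPM in pat1-1path2-1 and at 56.8, 57.7 and 61.9 CPM in path1-4path2-1, a log2 fold change of 0.49 ± 0.07 (adjusted p = 7.81e-05). Each of these genes was lower in the double that carries its mutation than in the other double, by less than 1.5-fold. Against the control, PAT1 was -0.15 in pat1-1path2-1 (adjusted p = 0.258) and 0.23 in path1-4path2-1 (adjusted p = 0.0994). PATH1 was 0.39 higher in pat1-1path2-1 (adjusted p = 0.000149) and -0.10 in path1-4path2-1 (adjusted p = 0.344). PATH2, mutated in both, was at 92.3 ± 4.47 and 97.2 ± 3.44 CPM (SD, n = 3), and SUMM2, also mutated in both, was at 4.71 ± 0.106 and 5.11 ± 0.31 CPM. The counts cover the whole gene and the labels give no position for the mutations, so these levels do not test the alleles.

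Among 21 tested genes of the PAT1 family and its decapping partners, 7 were higher in pat1-1path2-1 (33.3%, against 9.31% of all genes) and 1 was lower (4.76%, against 8.98%), with a list median of 0.07 against -0.01 for all genes. The 7 include PATH1 and the 1 is PAT1, both mutated loci. Without 1 library the 7 became 3 (pat1-1path2-1 replicate 1), 4 (its replicate 2), 4 (path1-4path2-1 replicate 2) or 3 (its replicate 3). PATH1, DCP1 and LSM1B passed every alternative. DCP1, the cofactor of the decapping enzyme, was at 150, 142 and 141 CPM in pat1-1path2-1 and at 120, 101 and 105 CPM in path1-4path2-1 (log2 fold change 0.41 ± 0.08, adjusted p = 0.0025). LSM1B, a subunit of the LSM1-7 ring, was at 7.67, 7.72 and 8.98 CPM against 6.38, 5.89 and 5.33 CPM (0.46 ± 0.09, adjusted p = 0.00244). The libraries of the genotypes did not overlap for either gene. Against the control, DCP1 was 0.40 higher in pat1-1path2-1 (adjusted p = 0.00129) and -0.02 in path1-4path2-1 (adjusted p = 0.922). The ring subunits LSM2 (0.31), LSM3A (0.40) and LSM4, listed as emb1644 (0.35), and the P-body protein DCP5 (0.23) were also called, each ending without at least 2 single libraries. The decapping enzyme DCP2 (-0.14, adjusted p = 0.219) and its scaffold VCS (-0.07, adjusted p = 0.591) were not called. Of 7 deadenylation and exosome genes 1 was called (14.3%, against 18.3% of all genes), the helicase MTR4 (-0.23), and its call ended under 7 alternatives.

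**Figure D2:**
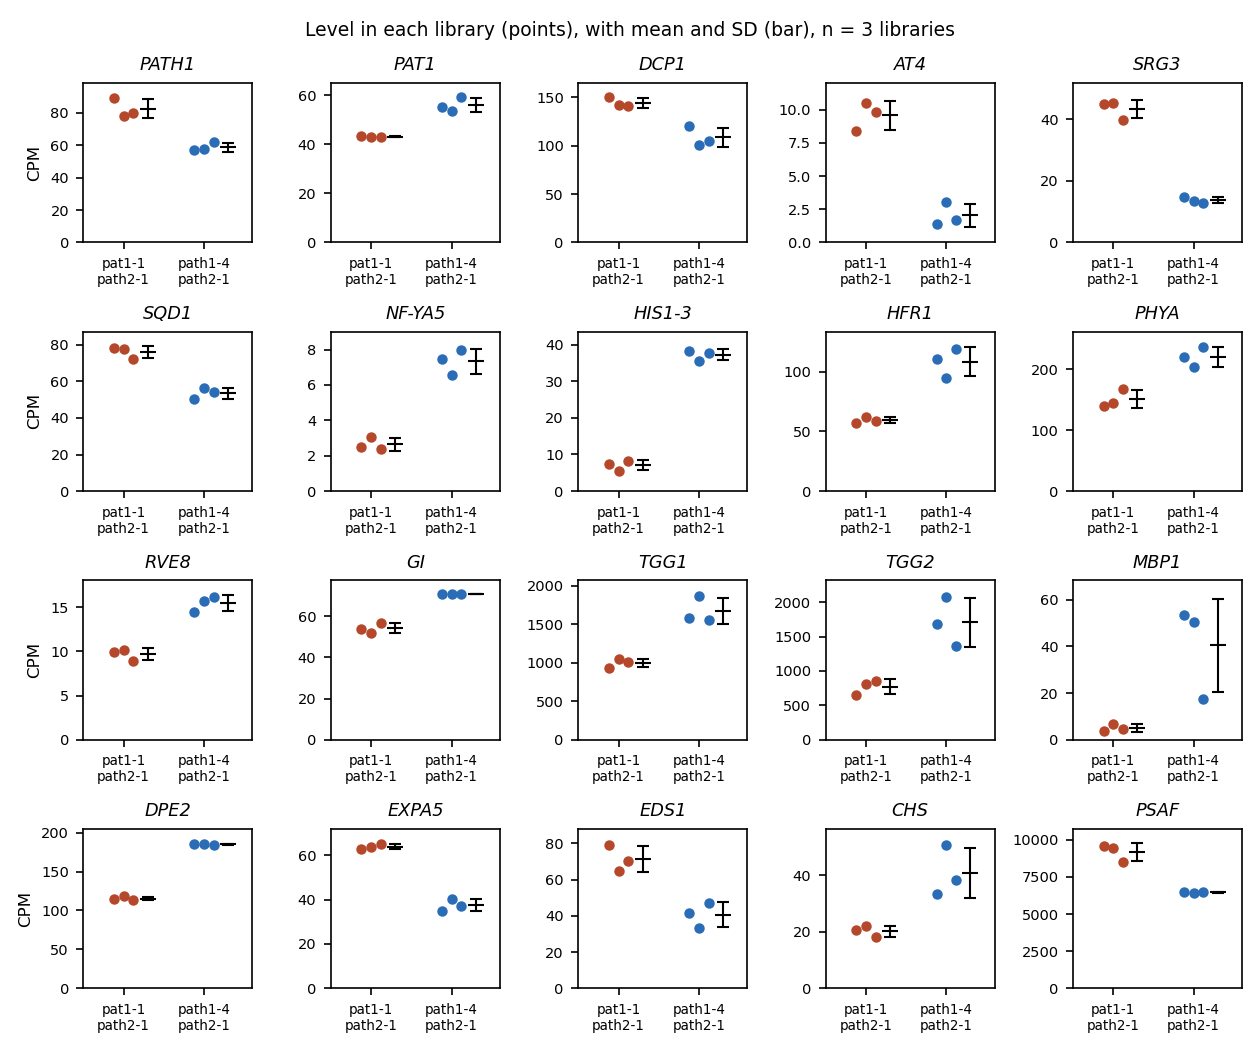
Each panel shows 1 gene in CPM on an axis from 0, with 3 libraries of pat1-1path2-1 (red) and 3 of path1-4path2-1 (blue) as points and the mean with SD (n = 3) beside them. All genes shown are called, and the groups do not overlap in any panel, as for 3639 of all 3722 called genes. Of all 20346 genes tested, 8417 had no overlap. MBP1 spreads most within path1-4path2-1, at 17.5 to 53.4 CPM.

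Genes that plants raise when phosphate is scarce were among the largest differences by name. AT4 (AT5G03545), a transcript of the IPS1 family that sequesters the microRNA miR399, and SRG3, a glycerophosphodiester phosphodiesterase that releases phosphate from lipid head groups, are shown here with SQD1, which makes the head group of sulfolipid, since all 3 were higher in pat1-1path2-1. The windows run from 250 bases before to 50 bases after the annotated gene start and were read from the TAIR10.1 genome with the RefSeq annotation. They are written 5′ to 3′ on the strand of the gene, and capitals mark the P1BS motif, GNATATNC, the site of the phosphate response factor PHR1.
AT4 (chr5:894332-894631, plus strand): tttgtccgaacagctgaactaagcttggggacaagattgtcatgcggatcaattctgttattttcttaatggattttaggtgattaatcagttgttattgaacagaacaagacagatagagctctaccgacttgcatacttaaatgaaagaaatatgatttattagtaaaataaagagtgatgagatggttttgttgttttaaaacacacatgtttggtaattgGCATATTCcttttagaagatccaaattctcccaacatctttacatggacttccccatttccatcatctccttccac
SRG3 (chr3:349961-350260, minus strand): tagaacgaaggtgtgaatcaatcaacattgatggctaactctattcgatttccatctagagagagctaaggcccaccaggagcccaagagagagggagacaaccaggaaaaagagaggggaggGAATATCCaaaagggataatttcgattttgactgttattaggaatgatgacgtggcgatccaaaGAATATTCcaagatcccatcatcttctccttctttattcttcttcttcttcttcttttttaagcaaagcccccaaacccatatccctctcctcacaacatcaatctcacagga
SQD1 (chr4:15935123-15935422, plus strand): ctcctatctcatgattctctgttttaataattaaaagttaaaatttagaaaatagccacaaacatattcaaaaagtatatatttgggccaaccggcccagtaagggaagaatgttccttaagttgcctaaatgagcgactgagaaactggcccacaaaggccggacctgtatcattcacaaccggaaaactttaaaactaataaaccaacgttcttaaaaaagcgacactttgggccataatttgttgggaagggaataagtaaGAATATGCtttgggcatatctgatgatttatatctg

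These 3 genes were chosen because they were higher, and all 3 windows hold the motif: AT4 once, SRG3 in 2 places, and SQD1 once, 15 bases into the gene. Searched on both strands, the motif lies in 1261 of 20204 such windows of tested genes (6.24%), in 6.86% of those of genes called higher and in 6.71% of those of genes called lower. On the list of phosphate and iron genes it also lies in the windows of 4 of the 18 members not called, SPX1, PHT1;4, MGD2 and PLDP2, and of 0 of the 6 lower. A match is a description of letters and not evidence of binding.

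AT4 was at 8.39, 10.5 and 9.83 CPM in pat1-1path2-1 and at 1.4, 3.05 and 1.71 CPM in path1-4path2-1. Every library of the first lay above every library of the second, by a log2 fold change of 2.26 ± 0.34 (adjusted p = 0.000179). SRG3 was at 44.9, 45.2 and 39.9 CPM against 14.9, 13.6 and 12.8 CPM (1.65 ± 0.21, adjusted p = 4.48e-05). SQD1 was at 78.1, 77.8 and 72.3 CPM against 50.2, 56.4 and 54 CPM (0.51 ± 0.07, adjusted p = 0.000142). SRG3 departed from the control in both genotypes and in opposite directions, by 0.91 in pat1-1path2-1 (adjusted p = 0.00192) and by -0.74 in path1-4path2-1 (adjusted p = 0.0168). For AT4 the values were 1.96 (adjusted p = 0.00018) and -0.31 (adjusted p = 0.61). In the single mutants SRG3 was higher in pat1-1 than in path1-4 as well (1.38, adjusted p = 0.000252), and AT4 was not called (1.01, adjusted p = 0.0848).

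The list of 25 phosphate and iron genes, which holds SQD1 but not AT4 or SRG3, did not share this direction. SQD1 was its 1 higher member (4%, against 9.31% of all genes), and 6 were lower (24%, against 8.98%). The phosphate sensor SPX1 (0.56, adjusted p = 0.142), the transporter PHT1;4, listed as ATPT2 (0.78, adjusted p = 0.179), and PHR1 itself (0.02, adjusted p = 0.822) were not called. The phosphate exporter PHO1 was lower (-0.53, adjusted p = 0.0465) in a call that ended under 5 alternatives. The other 5 lower members were iron genes: the iron storage proteins FER1 (-0.91) and FER4 (-0.40), the ferric reductase FRO3 (-0.45 ± 0.09, adjusted p = 0.00278), the transporter YSL1 (-0.76) and the iron regulator BTS, listed as EMB2454 (-0.28). FRO3 passed every alternative, and the calls of FER1, FER4, YSL1 and BTS each ended under at least 4. The count of 6 became 1 without pat1-1path2-1 replicate 1 or path1-4path2-1 replicate 3, 3 without pat1-1path2-1 replicate 2 or 3, and 2 without path1-4path2-1 replicate 2.

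NF-YA proteins are the sequence-reading subunits of the NF-Y complex that binds CCAAT boxes, and 7 of the 10 in Arabidopsis were lower in pat1-1path2-1 (70%, against 8.98% of all genes), none higher. The family was listed after its members had been seen among the largest changes. Transcripts of several members are cleaved through a site for the microRNA miR169 in the 3′ UTR, so the site is shown beside the changes. The mature miR169 sequences below, those with the best match to at least 1 member, are from RefSeq on TAIR10.1, with the seed, bases 2 to 8, in capitals.
miR169b-5p and miR169c: cAGCCAAGgaugacuugccgg
miR169d to miR169g: uGAGCCAAggaugacuugccg
miR169h to miR169n: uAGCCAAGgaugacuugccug

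The best ungapped match to any miR169 sequence in each transcript follows, read on the transcript strand from TAIR10.1. Capitals mark bases identical to the reverse complement of the microRNA, so G:U pairs are in lower case. The microRNA is miR169b-5p for NF-YA1 and NF-YA7, miR169d for NF-YA9 and miR169h for the others.
NF-YA1 (chr5:4051058-4051078, minus strand): CCGGCAAaTCATtCTTGGCTt
NF-YA2 (chr3:1676807-1676827, minus strand): CAGGCAAaTCATCtTTGGCTc
NF-YA3 (chr1:27405638-27405658, minus strand): agGGgAAGTCATCCTTGGCTA
NF-YA4 (chr2:14650415-14650435, minus strand): CAGcCAgGagtTCCaTtGCaA
NF-YA5 (chr1:20217494-20217514, minus strand): acGGgAAGTCATCCTTGGCTA
NF-YA6 (chr3:4644334-4644354, plus strand): aAGGgAAGTCATCCTTGGCTA
NF-YA7 (chr1:10804756-10804776, minus strand): CtGGtAAaTCcgCCaTGGCTG
NF-YA8 (chr1:6050422-6050442, minus strand): aAGGgAAGTCATCCTTGGCTg
NF-YA9 (chr3:7328380-7328400, plus strand): CGGCAAtTCATtCTTGGCTtt
NF-YA10 (chr5:1986749-1986769, plus strand): CAGGCAAaTCATCtTTGGCTc

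A match of at least 17 of 21 bases lies in the 3′ UTR of 8 members, and 5 of these 8 were lower. The other 2 members, NF-YA4 and NF-YA7, hold no such match, their best windows lie in the coding sequence, and both were lower too. Levels of the microRNA were not analysed here.

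NF-YA5 was at 2.5, 3.05 and 2.36 CPM in pat1-1path2-1 and at 7.49, 6.54 and 7.97 CPM in path1-4path2-1, a log2 fold change of -1.48 ± 0.21 (adjusted p = 9.93e-05). A long noncoding RNA is annotated antisense to NF-YA5, and the strand setting of the counts is not given in the sources used here, so reads of the pair cannot be told apart. NF-YA2, listed as UNE8, was at 4.57, 5.85 and 4.97 CPM against 11.9, 9.81 and 12.9 CPM (-1.18 ± 0.29, adjusted p = 0.00919). NF-YA4 (-0.51, adjusted p = 0.00575) and NF-YA6 (-0.68, adjusted p = 0.00458) passed every alternative as these 2 did. NF-YA10 (-1.61, adjusted p = 0.012) lost its call without pat1-1path2-1 replicate 1 (adjusted p = 0.0739). NF-YA7 (-0.58, adjusted p = 0.0227) lost it without pat1-1path2-1 replicate 1 (0.0853) or 2 (0.0596) or path1-4path2-1 replicate 1 (0.124), and NF-YA3, listed as HAP2C (-0.62, adjusted p = 0.0352), under 7 alternatives. Without pat1-1path2-1 replicate 1 the count of lower members was 4. In the single mutants NF-YA5 was lower in pat1-1 than in path1-4 by a like amount (-1.23, adjusted p = 0.0007).

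Of 30 abscisic acid and drought genes, 7 were lower in pat1-1path2-1 (23.3%, against 8.98% of all genes), 1 was higher and 22 were not called, with a median of -0.23. HIS1-3, a linker histone that drought and abscisic acid induce, was at 7.45, 5.56 and 8.28 CPM in pat1-1path2-1 and at 38.3, 35.5 and 37.8 CPM in path1-4path2-1. That gap, -2.39 ± 0.27 on the log2 scale (adjusted p = 1.74e-05), was among the 12 largest lower genes with a symbol. RD26, a NAC transcription factor of the hormone's response, was at 35, 32.4 and 35.8 CPM against 50.3, 52.3 and 50.9 CPM (-0.57 ± 0.11, adjusted p = 0.00213). ABF3, a bZIP factor that binds abscisic acid response elements, was at -0.57 ± 0.14 (adjusted p = 0.00967). The hormone synthesis gene AAO3 (-0.45), the phosphatase gene HAI2 (-0.87), ABF4 (-0.20) and LTP3 (-1.50) were lower and the receptor gene PYL4 was higher (0.67), each in a call that at least 3 alternatives ended. Without 1 library the 7 became 4 (pat1-1path2-1 replicate 1 and path1-4path2-1 replicates 1 and 2) or 3 (pat1-1path2-1 replicate 2 and path1-4path2-1 replicate 3). Against the control, HIS1-3 was -3.10 in pat1-1path2-1 (adjusted p = 1.08e-07) and -0.70 in path1-4path2-1 (adjusted p = 0.0449).

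Of 21 shade and phytochrome genes 6 were lower and 1 higher, a share of 28.6% lower against 8.98% of all genes. HFR1, a bHLH protein that restrains shade growth and is itself induced by shade, was at 57, 61.9 and 58.6 CPM in pat1-1path2-1 and at 111, 95.1 and 119 CPM in path1-4path2-1 (-0.88 ± 0.13, adjusted p = 0.000228). The photoreceptor gene PHYA was at 140, 145 and 168 CPM against 220, 204 and 237 CPM (-0.54 ± 0.10, adjusted p = 0.000894). PHYB, the other main photoreceptor gene of the response to red light, was at 80.1, 75.9 and 81.9 CPM against 102, 100 and 110 CPM (-0.39 ± 0.07, adjusted p = 0.000715). None of the 3 overlapped between genotypes. They departed from the control on different sides. HFR1 and PHYB were above it in path1-4path2-1 (0.69, adjusted p = 0.0011, and 0.50, adjusted p = 4.37e-05) and not called in pat1-1path2-1, whereas PHYA was below it in pat1-1path2-1 (-0.34, adjusted p = 0.012) and not called in path1-4path2-1. PIL1 (-0.48), ATHB-2 (-0.42) and SPA1 (-0.23) were also lower and HAT1 higher (0.37), and each of these calls ended without at least 2 single libraries.

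Of 41 auxin genes 9 were lower (22%, against 8.98% of all genes) and 2 higher (4.88%, against 9.31%). Without pat1-1path2-1 replicate 2 the 9 became 5, and without any 1 library other than path1-4path2-1 replicate 1 the 2 became 1. YUC8, a flavin monooxygenase that makes auxin, was at 1.97, 1.95 and 2.46 CPM in pat1-1path2-1 and at 4.36, 3.57 and 3.56 CPM in path1-4path2-1 (-0.86 ± 0.15, adjusted p = 0.000829). TAR2, which makes the precursor of that step, was at -0.70 ± 0.15 (adjusted p = 0.00369). The response genes IAA29 (-0.60, adjusted p = 0.00292), IAA1 (-0.55, adjusted p = 0.00203) and GH3.3 (-0.93, adjusted p = 0.00408) were lower too. The SAUR gene AT1G72430 went the other way, at 80.6, 82.2 and 75.5 CPM against 51.7, 45.1 and 41.1 CPM (0.79 ± 0.17, adjusted p = 0.00328).

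The list of gibberellin and brassinosteroid genes held 4 higher and 4 lower of 31 (12.9% each way, against 9.31% and 8.98% of all genes), with 2 higher without pat1-1path2-1 replicate 1 or path1-4path2-1 replicate 3. The gibberellin synthesis gene GA20OX3, listed as YAP169, was at 1.03, 0.609 and 0.803 CPM in pat1-1path2-1 against 2, 1.76 and 2.39 CPM in path1-4path2-1 (-1.31 ± 0.21, adjusted p = 0.000331). The brassinolide synthase gene CYP85A2 was also lower (-0.65 ± 0.09, adjusted p = 0.000117). The DELLA repressor gene RGL1 was lower (-0.69, adjusted p = 0.00271), and the brassinosteroid transcription factor gene BZR1 was higher (0.33 ± 0.06, adjusted p = 0.0012). Of 22 cell wall loosening genes 4 were higher (18%, against 9.31% of all genes) and 2 lower (9.09%, against 8.98%). The expansin gene EXPA5 was at 62.8, 63.9 and 65.1 CPM in pat1-1path2-1 and at 35, 40.5 and 37.2 CPM in path1-4path2-1 (0.77 ± 0.10, adjusted p = 7.32e-05), and EXPA4 was lower (-0.57, adjusted p = 0.00347). The higher members became 2 without any 1 library of pat1-1path2-1 and 1 without path1-4path2-1 replicate 3, and the lower members became 1 without any 1 library other than path1-4path2-1 replicate 2.

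In the cytokinin list 4 of 29 were higher and 4 lower (13.8% each way, against 9.31% and 8.98% of all genes). ARR16, a type-A response regulator, was at 4.92, 5.36 and 4.51 CPM in pat1-1path2-1 and at 9.96, 9.12 and 8.74 CPM in path1-4path2-1 (-0.91 ± 0.12, adjusted p = 5.9e-05). Cytokinin oxidases, which degrade the hormone, went both ways, with CKX5 at -0.83 ± 0.16 (adjusted p = 0.00198) and CKX4 at 0.90 ± 0.19 (adjusted p = 0.00294). AHP4, a phosphotransfer protein of the pathway, was at 0.72, 0.528 and 0.502 CPM against 7.07, 3.01 and 5.35 CPM (-3.13 ± 0.83, adjusted p = 0.0129), in a call that ended without pat1-1path2-1 replicate 2 (adjusted p = 0.0503). The count of higher members became 2 without pat1-1path2-1 replicate 1 or path1-4path2-1 replicate 1 or 2 and 1 without each other library, and the lower count became 2 without pat1-1path2-1 replicate 2. Of 33 genes of leaf form 3 were higher (9.09%, against 9.31% of all genes) and 2 lower (6.06%, against 8.98%). The abaxial identity gene FIL, listed as AFO (0.56, adjusted p = 0.000713), and TCP4, which limits growth of the leaf margin (0.41, adjusted p = 0.00585), were higher. TCP2 (-0.29) and NGA1 (-0.39) were lower. TCP2 lost its call without pat1-1path2-1 replicate 1 (adjusted p = 0.0515), and NGA1 under 3 alternatives.

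Of 28 circadian clock genes 8 were lower in pat1-1path2-1 (28.6%, against 8.98% of all genes) and 1 was higher (3.57%, against 9.31%), with a median of -0.15. Without pat1-1path2-1 replicate 1 or 3 or path1-4path2-1 replicate 3 the 8 became 5. GI, which stabilizes the photoreceptor ZTL, was at 54, 52 and 56.9 CPM in pat1-1path2-1 and at 70.6, 70.7 and 70.8 CPM in path1-4path2-1 (-0.38 ± 0.07, adjusted p = 0.00102). RVE8, a morning activator of evening genes, was at 9.93, 10.2 and 8.93 CPM against 14.5, 15.7 and 16.2 CPM (-0.67 ± 0.09, adjusted p = 7.81e-05). GRP7, an RNA-binding protein of a clock output loop, was at 210, 222 and 277 CPM against 339, 315 and 304 CPM (-0.43 ± 0.09, adjusted p = 0.00396). The coactivator gene LNK2, listed by its identifier AT3G54500 (-0.37, adjusted p = 0.00507), and the repressor gene PRR9 (-0.26, adjusted p = 0.00787) passed every alternative as well. CCA1 (-0.24), LNK3, listed as AT3G12320 (-0.34), and LKP2 (-0.18) were lower and TOC1 (0.20) was higher in calls that at least 4 alternatives ended. The labels give no time of harvest.

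GRP7 and PRR9 are the lower clock genes whose windows hold both motifs searched, the evening element AAAATATCT and the G-box CACGTG, and capitals mark the 2 motifs, which do not overlap each other here.
GRP7 (chr2:9266508-9266807, minus strand): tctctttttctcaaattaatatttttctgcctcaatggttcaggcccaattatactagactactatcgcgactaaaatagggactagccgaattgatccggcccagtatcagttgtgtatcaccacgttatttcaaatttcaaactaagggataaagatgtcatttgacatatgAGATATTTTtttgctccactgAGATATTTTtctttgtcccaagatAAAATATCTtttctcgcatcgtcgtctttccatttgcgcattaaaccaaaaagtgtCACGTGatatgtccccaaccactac
PRR9 (chr2:19232357-19232656, plus strand): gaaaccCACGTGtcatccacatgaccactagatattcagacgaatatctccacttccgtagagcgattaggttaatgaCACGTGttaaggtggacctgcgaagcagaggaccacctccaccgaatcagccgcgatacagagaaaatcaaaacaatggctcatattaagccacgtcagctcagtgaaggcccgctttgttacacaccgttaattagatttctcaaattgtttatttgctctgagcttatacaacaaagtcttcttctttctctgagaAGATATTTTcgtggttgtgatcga

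The GRP7 window holds 3 evening elements, between 76 and 31 bases before the gene start, and 1 G-box. The PRR9 window holds 2 G-boxes, 244 and 172 bases before the start, and 1 evening element inside the gene. Among the 8 lower clock genes 6 windows hold a G-box and 2 an evening element, and among the 19 not called 8 and 6 do. Over all tested genes the G-box lies in 8.71% of windows. It lies in 12.1% of the windows of genes called lower in pat1-1path2-1, 216 of 1789, and in 6.6% of those of genes called higher, 125 of 1894. The evening element lies in 3% of all windows and in 3.01% and 3.91% of those of higher and lower genes.

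The myrosinase system releases toxic products from glucosinolates when tissue is crushed. Of its 12 genes listed after the values had been seen, 6 were lower (50%, against 8.98% of all genes), none was higher and 6 were not called. DESeq2 called 1 member higher. TGG1, 1 of the 2 main leaf myrosinases, was at 934, 1048 and 1007 CPM in pat1-1path2-1 and at 1588, 1872 and 1560 CPM in path1-4path2-1 (-0.75 ± 0.10, adjusted p = 5.52e-05). TGG2, the other, was at 644, 809 and 854 CPM against 1685, 2075 and 1367 CPM (-1.15 ± 0.15, adjusted p = 6.89e-05). The myrosinase-binding protein gene MBP1 was at 3.82, 6.9 and 4.46 CPM against 53.4, 50.5 and 17.5 CPM (adjusted p = 9.89e-05). All 3 were apart between genotypes, although replicate 3 of path1-4path2-1 was far below the others of its genotype for MBP1. The nitrile specifier NSP4 was lower too (-1.09, adjusted p = 0.00679). Of the 6 lower members 4 passed every alternative. TGG1 and TGG2 are made in guard cells and myrosin cells. FAMA, the transcription factor that sets the fate of both cell types, is itself 1 of the 6 lower members. It was at 12.9, 13.9 and 15.7 CPM against 16.3, 18.8 and 17.5 CPM (-0.31, adjusted p = 0.0218), in a call that 4 alternatives ended. The other guard cell marker, MYB60, was not called (-0.17, adjusted p = 0.281), and the 2 guard cell markers summed to 21.2 to 23.5 CPM in pat1-1path2-1 and 24.5 to 27.9 CPM in path1-4path2-1. Their part in the result was not tested, and in bulk tissue fewer cells of a type and less RNA per cell cannot be told apart. The trichome marker GL2 was also lower (-0.42, adjusted p = 0.0402) and ETC3 was not called.

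Of 30 glucosinolate genes, 3 were higher and 3 lower (10% each way, against 9.31% and 8.98% of all genes). TGG1 and TGG2 were 2 of the lower. Without path1-4path2-1 replicate 1 the lower members numbered 5. MAM3, listed as MAM-L, which lengthens the side chains of aliphatic glucosinolates, was at 4.76, 4.1 and 6.52 CPM in pat1-1path2-1 and at 11.7, 12.1 and 16.2 CPM in path1-4path2-1 (-1.39 ± 0.21, adjusted p = 0.000232). The higher members belong to the indole branch. SOT16, a sulfotransferase, was at 121, 109 and 116 CPM against 63.4, 83 and 71.3 CPM (0.67 ± 0.13, adjusted p = 0.00132), and CYP81F2, which modifies indole glucosinolates in defence, was at 1.16 ± 0.26 (adjusted p = 0.00458). CYP83B1 was higher by 0.52 in a call that 6 alternatives ended.

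In the flavonoid list 7 of 26 were lower (26.9%, against 8.98% of all genes) and 5 higher (19.2%, against 9.31%), with a median of -0.48. The lower members include enzymes of the pathway. CHS, its entry enzyme, was at 20.5, 22 and 18.1 CPM in pat1-1path2-1 and at 33.5, 50.7 and 38.4 CPM in path1-4path2-1 (-1.01 ± 0.21, adjusted p = 0.0024). FLS1, which makes flavonols, was at 0.971, 0.812 and 0.853 CPM against 2.27, 3.4 and 2.53 CPM (-1.61 ± 0.23, adjusted p = 0.000131). The laccase gene LAC2 was at -1.10 (adjusted p = 0.00251). PAP1, a MYB activator of anthocyanin synthesis, was at 3.16 to 7.35 CPM against 13.6 to 19.9 CPM (-1.74 ± 0.48, adjusted p = 0.0168), in a call that ended without pat1-1path2-1 replicate 1 (adjusted p = 0.0908). The higher members include repressors of anthocyanin synthesis: MYBL2 (0.33, adjusted p = 0.00557) and the LBD proteins LBD37 (0.44), LBD38 (0.80) and LBD39 (0.91), whose calls ended without at least 2 single libraries. TTG1, a shared activator, was also higher (0.51 ± 0.08, adjusted p = 0.000288). Without 1 library the 7 became 4 (pat1-1path2-1 replicate 1 and path1-4path2-1 replicate 3) and the 5 became 3 (pat1-1path2-1 replicate 1, path1-4path2-1 replicate 1) or 2 (path1-4path2-1 replicate 3).

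Of 25 nitrogen and sulfur genes 6 were higher (24%, against 9.31% of all genes) and none lower. They were the nitrate and nitrite reductases NIA1 (0.70) and NIR1 (0.50), the sulfate transporter SULTR1;2 (0.72 ± 0.17, adjusted p = 0.00688) and the sulfur starvation genes LSU1 (1.58), LSU2 (0.69) and SDI1 (1.47). SULTR1;2 was at 3.19, 3.74 and 3.86 CPM in pat1-1path2-1 and at 2.02, 2.11 and 2.39 CPM in path1-4path2-1. It was the 1 member to pass every alternative, and the 6 became 2 without pat1-1path2-1 replicate 1 or path1-4path2-1 replicate 3 and 3 without path1-4path2-1 replicate 1.

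Among 33 sugar and starch genes 5 were lower (15.2%, against 8.98% of all genes) and 1 higher (3.03%, against 9.31%). Each fit without 1 library had 3 lower. DPE2, which metabolizes maltose from starch at night, was at 115, 118 and 113 CPM in pat1-1path2-1 and at 185, 186 and 184 CPM in path1-4path2-1. Its log2 fold change of -0.68 ± 0.08 (adjusted p = 2.09e-05) was matched by -0.66 in the single mutants (adjusted p = 2.41e-05). APL3, a subunit of the enzyme that commits glucose to starch, was at 12.7, 16.9 and 14.4 CPM against 28.8, 25.5 and 27.2 CPM (-0.89 ± 0.16, adjusted p = 0.000783). The senescence regulator ORS1, listed as ATNAC3, was lower as well (-0.73 ± 0.12, adjusted p = 0.000322), on the list of senescence genes.

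Of 48 photosystem and antenna genes 4 were higher (8.33%, against 9.31% of all genes) and 3 lower (6.25%, against 8.98%). Without 1 library the 3 became 1 (pat1-1path2-1 replicate 3, path1-4path2-1 replicate 1) or 0 (each of the others). PSAF, a subunit of photosystem I, was at 9568, 9466 and 8491 CPM in pat1-1path2-1 and at 6455, 6433 and 6511 CPM in path1-4path2-1 (0.50 ± 0.09, adjusted p = 0.000608). PSAD-1 of the same complex (0.44, adjusted p = 0.00309) and PSBY of photosystem II (0.53, adjusted p = 0.000897) were higher too. The antenna proteins CAB1 (-0.37), LHCB3 (-0.31) and LHCA2 (-0.25) were lower and the Rubisco subunit RBCS1A higher (0.53), in calls that at least 4 alternatives ended. Of 107 genes encoded in the chloroplast, a list added after values had been seen, none was higher. In this list 35 were lower (32.7%, against 8.98% of all genes), with a median of -0.54. That count rests on single libraries: it was 15 without pat1-1path2-1 replicate 1, 20 without its replicate 2, 23 without its replicate 3, 67 without path1-4path2-1 replicate 1, 8 without its replicate 2 and 15 without its replicate 3. The chloroplast share of all counts was 1.59, 1.76 and 1.73% in pat1-1path2-1 and 1.67, 2.96 and 2.5% in path1-4path2-1, so the genotypes overlapped.

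Of 24 immune regulators, 3 were higher (12.5%, against 9.31% of all genes) and none lower, with a median of 0.51. EDS1, a lipase-like hub of immune signalling, was at 79.2, 64.7 and 70.3 CPM in pat1-1path2-1 and at 41.5, 33.2 and 47 CPM in path1-4path2-1 (0.81 ± 0.20, adjusted p = 0.00815). Its partner PAD4 (0.85, adjusted p = 0.0391) and the salicylic acid regulator SARD1 (1.03, adjusted p = 0.0373) lost their calls under 5 alternatives, and without any 1 library other than path1-4path2-1 replicate 1 the 3 became 1. PR1, the usual marker of salicylic acid, was at 0.20 (adjusted p = 0.866). Among the 12 largest higher genes with a symbol, RLP38, a receptor-like protein, was at 52.4, 46.1 and 45.9 CPM against 16.9, 16.6 and 23.5 CPM (1.34 ± 0.22, adjusted p = 0.000482), and the malectin-like receptor kinase gene IOS1 was at 11.3, 12.3 and 9.03 CPM against 4.14, 3.83 and 4.87 CPM (1.35 ± 0.33, adjusted p = 0.00783). MKS1, a substrate of MPK4, was at 12.2, 12.3 and 12.9 CPM against 9.19, 7.57 and 8.97 CPM (0.53 ± 0.12, adjusted p = 0.00581). It was the 1 called member of 10 MPK4 pathway genes (10%, against 18.3% of all genes). Against the control it was -0.16 in pat1-1path2-1 (adjusted p = 0.335) and -0.69 in path1-4path2-1 (adjusted p = 0.000516).

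**Figure D3:**
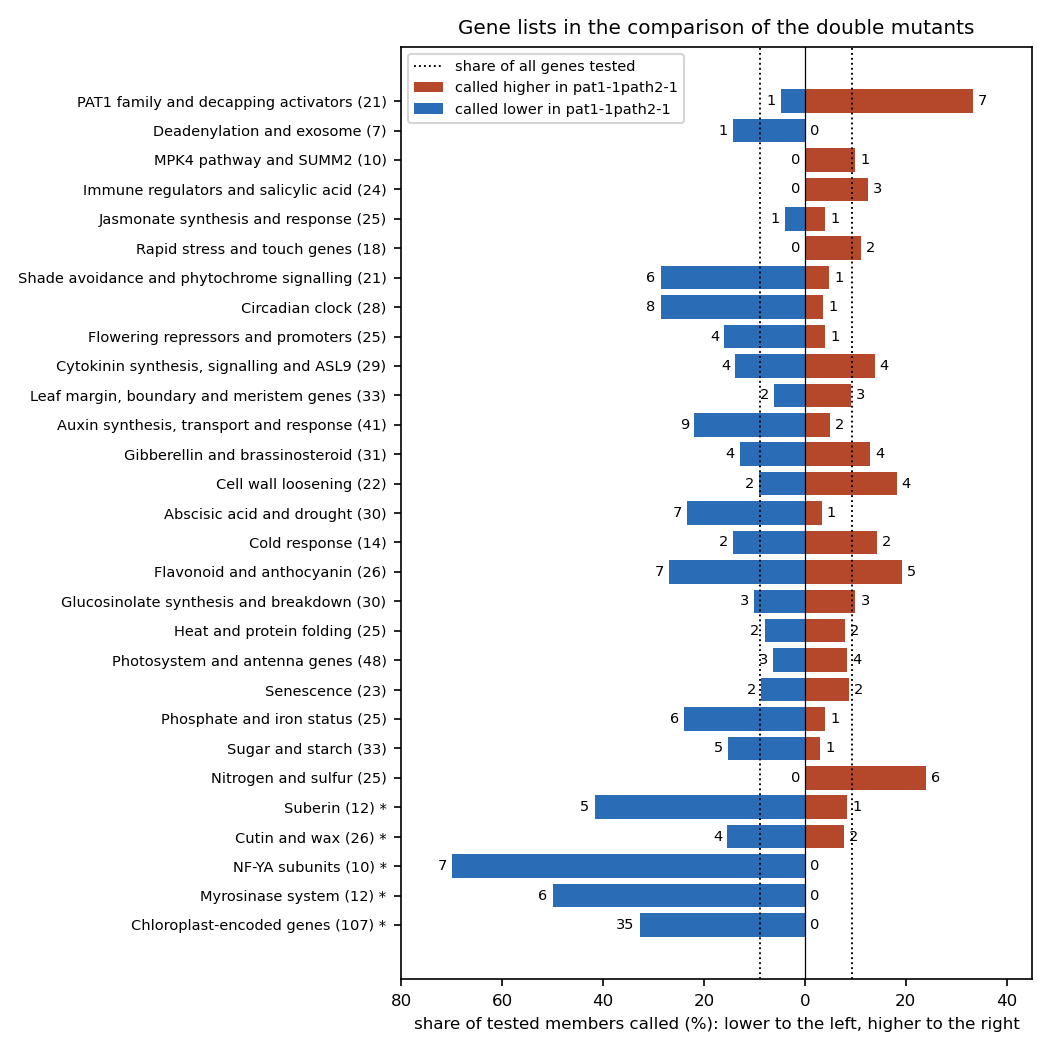
Bars give the share of each list's tested members (number in brackets) called higher (right) or lower (left) in pat1-1path2-1, with the number of genes at the bar's end; dotted lines mark 9.31% and 8.98%, the shares among all genes tested. Lists were chosen with earlier results of these data known, and those with a star were added after the values shown had been seen. The NF-YA list reaches 70% lower and the PAT1 family and decapping list 33.3% higher.

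Of 25 jasmonate genes 1 was higher and 1 lower (8% called, against 18.3% of all genes). Of 18 rapid stress and touch genes 2 were higher and none lower (11.1% called). None of these calls passed every alternative, which 6.78% of all genes tested did. Of 25 flowering genes 4 were lower (16%, against 8.98% of all genes) and 1 was higher (4%, against 9.31%). The 4 became 1 without pat1-1path2-1 replicate 1 or 2, and 2 without path1-4path2-1 replicate 3. The repressor gene TOE1, listed as RAP2.7, was lower, at 97.7, 108 and 101 CPM in pat1-1path2-1 and at 138, 134 and 133 CPM in path1-4path2-1 (-0.40 ± 0.07, adjusted p = 0.000747). Of 14 cold genes 2 were higher and 2 lower (14.3% each way, against 9.31% and 8.98% of all genes). COR27, a cold- and clock-regulated repressor of light growth, was at 6.67, 8.61 and 8.28 CPM against 3.13, 4.13 and 3.42 CPM (1.15 ± 0.20, adjusted p = 0.00061). COR47 was also higher (0.44), and DREB1A and CBF2 were lower (-0.76 each), in calls that at least 3 alternatives ended. Of 12 suberin genes, listed after values had been seen, 5 were lower (41.7%, against 8.98% of all genes) and 1 was higher (8.33%, against 9.31%). The 5 became 3 without pat1-1path2-1 replicate 1 or path1-4path2-1 replicate 2. The fatty acid reductase FAR5 (-3.40 ± 0.65, adjusted p = 0.00151) was at 0.125, 0.0406 and 0.1 CPM against 0.641, 1.59 and 0.911 CPM, so each library held few counts of it.

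Beyond the lists, GAD, a glutamate decarboxylase that makes GABA, was at 4.85, 5.16 and 5.22 CPM in pat1-1path2-1 and 1.7, 2.11 and 1.25 CPM in path1-4path2-1 (1.61 ± 0.33, adjusted p = 0.00229). PCR2, a zinc exporter of the plant cadmium resistance family, was at 16.1, 13.7 and 14.7 CPM against 6.04, 4.9 and 5.81 CPM (adjusted p = 0.000713). The transcription factor gene Rap2.6L (1.37, adjusted p = 0.00792) and RBP36B, a subunit of RNA polymerases (1.35, adjusted p = 0.000367), were higher too. Prx37 (2.18), XTH19 (1.39) and CML41 (1.36) were called and lost the call under 4 to 6 alternatives. Among the lower genes DML3, a DNA demethylase, was at 2.85, 3.05 and 2.76 CPM against 6.38, 8.56 and 8 CPM (adjusted p = 2.72e-05). MDP40, a microtubule-associated protein (-1.43, adjusted p = 0.00309), and DAA1 (-2.01, adjusted p = 0.00541) passed every alternative, and TPS03 (-1.56) and UMAMIT17 (-1.47) did not, each losing the call under 5.

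The comparison of pat1-1 with path1-4 single mutants exchanges the same alleles with PATH2 intact, in 6 other libraries. There 3285 genes were called (16.1% of those tested), 1911 without pat1-1 replicate 2, 1861 without path1-4 replicate 3 and 1460 in a fit of these 2 genotypes alone. Called in both comparisons were 1291 genes, 34.7% of the calls in the doubles and 39.3% of those in the singles, and 1250 of them had the same direction. Of the genes called in the doubles, 84.4% had the same sign in the singles, against 67.1% of all genes tested. Across the 20346 genes Pearson's r of the 2 sets of log2 fold changes was 0.474 and Spearman's rho 0.471, as a description, since genes are not independent replicates.

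The difference between the 2 comparisons was itself tested, and 375 genes (1.84%) were called, 243 with a higher value in the doubles and 132 with a lower one. DESeq2 called 656. Of the 375 genes called by edgeR, 212 were called in the doubles, 160 in the singles alone and 3 in neither. The count depended on single libraries: it was 85 without pat1-1path2-1 replicate 1, 181 without its replicate 2, 247 without its replicate 3, 233, 159 and 111 without path1-4path2-1 replicates 1, 2 and 3, 125 and 233 without pat1-1 replicates 2 and 3, and 217 without path1-4 replicate 2. ARP9, an actin-related protein, was at 28.7, 20.7 and 23.5 CPM in pat1-1path2-1 and at 11.2, 9.42 and 10.2 CPM in path1-4path2-1 (1.24 ± 0.20, adjusted p = 0.000415). In the singles its order was reversed, with 10.8 ± 0.741 CPM in pat1-1 and 22.5 ± 10.6 CPM in path1-4 (SD, n = 3), and the difference between the comparisons was 2.33 ± 0.29 (adjusted p = 0.000386). SHL1, a reader of histone methylation, differed by 1.17 ± 0.12 (adjusted p = 2.1e-05), being -0.91 in the singles and 0.26 in the doubles, where 7 alternatives ended its call. ARR16 was -0.91 in the doubles and -0.07 in the singles, and the photosystem gene PSAF 0.50 and -0.09. Without pat1-1path2-1 replicate 1 neither difference between the comparisons was called (adjusted p = 0.0507 for ARR16 and 0.0609 for PSAF). The defensin gene PDF1.3 was higher in pat1-1 than in path1-4 and lower in pat1-1path2-1 than in path1-4path2-1, with a log2 fold change of -1.78 in a call that 5 alternatives ended. For scpl31, PAP85 and BGLU45, the doubles were not called (-0.29, 0.66 and 0.25) and the singles were (2.96, 3.34 and 2.31).

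**Figure D4:**
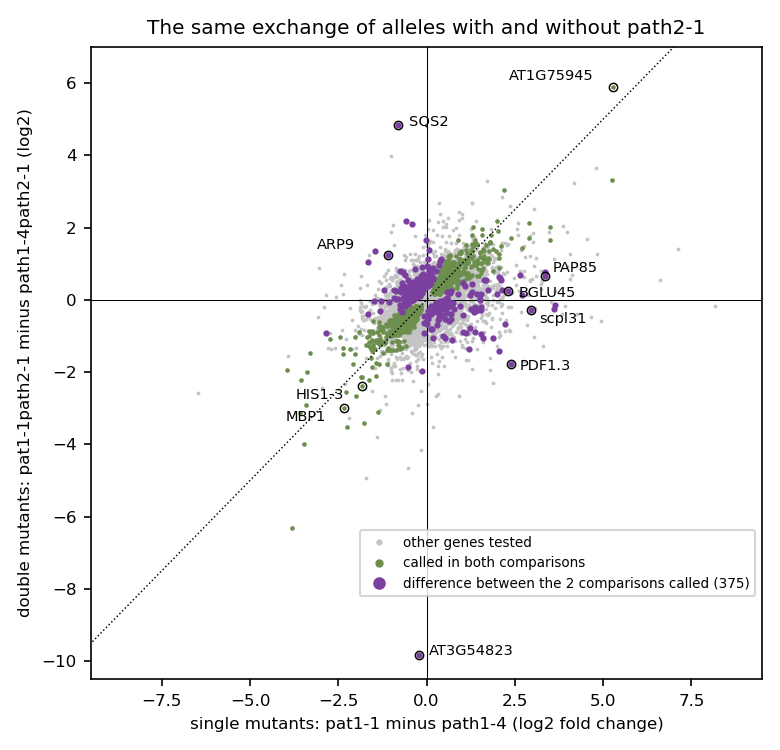
Each point is a gene, with its log2 fold change between the single mutants on the horizontal axis and between the double mutants on the vertical axis; the dotted line marks equal values. Purple marks the 375 genes whose 2 values differ by the interaction test, such as SQS2 (4.83 in the doubles) and PDF1.3 (-1.78), and green the genes called in both without such a difference.

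A few loci were nearly silent in 1 double and expressed in the other: 6 called genes had a fitted difference over 16-fold. The pseudogene AT3G54823 (chromosome 3, 20305300 to 20309796) had 3975 counts in the 3 libraries of path1-4path2-1 and 3 in those of pat1-1path2-1, a ratio of depth-scaled counts of 1080 (95% interval of the counting error 369 to 5230). It was also at 44 CPM in pat1-1, 51 in path1-4, 45 in pat1-1path1-4 and 50.8 in the triple mutant, and at 0.158 CPM in the control and 0.0745 in path2-1. AT1G75945 (chromosome 1, 28515245 to 28515916) had 756 counts in pat1-1path2-1 and 16 in path1-4path2-1, a ratio of 58.1 (35.5 to 102). It was at 9.91 to 12.9 CPM on average in the 4 genotypes with pat1-1 and at 0.151 to 0.961 CPM in the 4 without, where 1 control library held 66 counts.

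SQS2, a paralog of squalene synthase, had 242 counts in pat1-1path2-1 and 11 in path1-4path2-1, a ratio of 27 (14.8 to 54.9). Its level was 1.5, 5.24 and 3.26 CPM against 0.148, 0 and 0.142 CPM, with a log2 fold change of 4.83 ± 0.65 (adjusted p = 7.41e-05). It was at 8.79 CPM in the control, 8.44 in path1-4 and 4.81 in pat1-1, and at 0.115 CPM in path2-1 and 0.757 in the triple mutant, so 3 of the 4 genotypes with path2-1 were low and pat1-1path2-1 was between. The difference between the double and the single comparison was 5.64 ± 0.77 (adjusted p = 0.000724). The long noncoding RNA AT4G04895 had 1 count in pat1-1path2-1 and 44 in path1-4path2-1, a ratio of 35.8 (6.1 to 1450). The pseudogenes AT3G42110 and AT3G42090 had 0 counts in pat1-1path2-1 and 37 and 14 in path1-4path2-1, at least 10-fold and at least 3.8-fold higher there against a floor of 3 counts over the group. AT4G04895, AT3G42110 and AT3G42090 were below 1 CPM in both doubles, and none of these 3 was called under every alternative. The call of AT3G42090 ended without pat1-1path2-1 replicate 1 (adjusted p = 0.0644) or path1-4path2-1 replicate 3 (adjusted p = 0.0509).

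**Figure D5:**
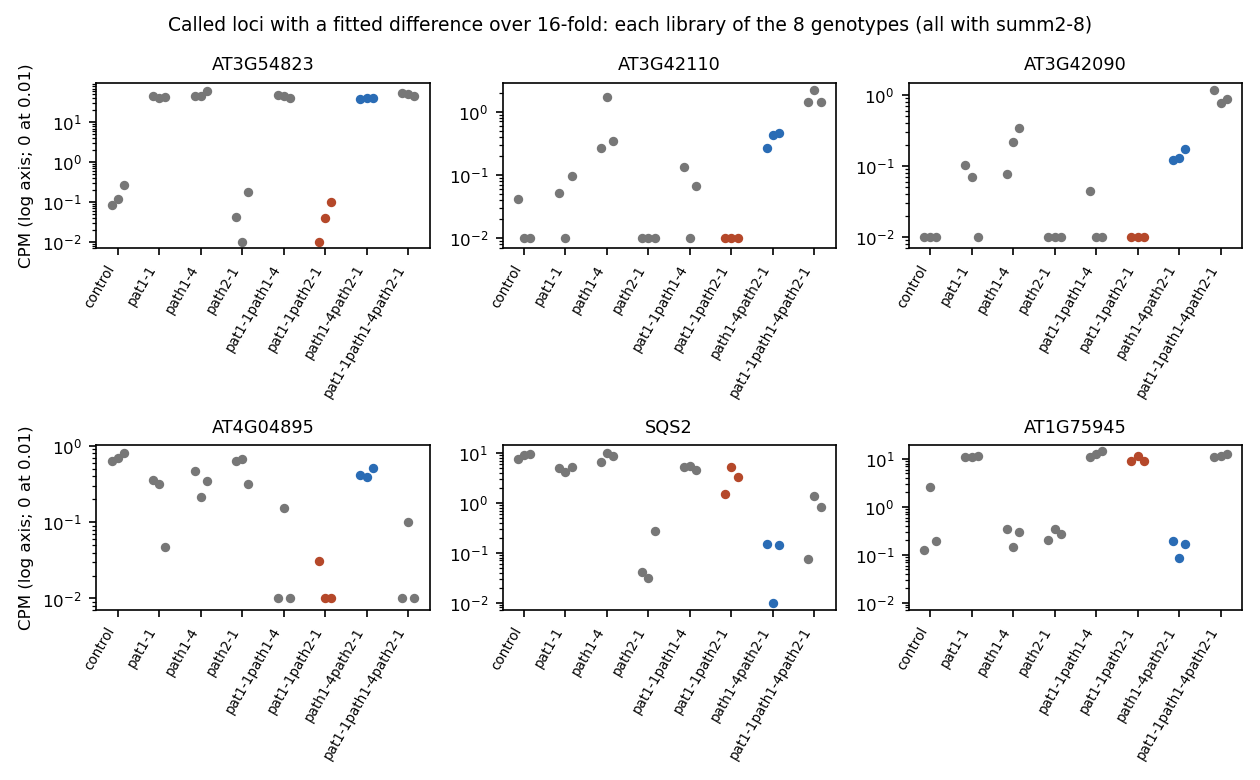
Points are the libraries of all 8 genotypes for the 6 called loci with a fitted difference over 16-fold, in CPM on a log axis with 0 drawn at 0.01; red is pat1-1path2-1 and blue path1-4path2-1. AT3G54823 averages 40.4 to 51 CPM in 5 genotypes and is under 1 CPM in the control, path2-1 and pat1-1path2-1, and AT1G75945 is high in every library with pat1-1.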

How the data were processed

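The authors deposited whole-number counts per gene and TPM for 24 libraries in numbered columns, which were assigned to genotypes by the numbers in the labels. Per the submitters' processing notes, STAR 2.5.1b and TAIR10 were used. The tool, annotation and strand setting used for counting were not given in these sources. TPM as deposited is the deposited count divided by length and scaled, with a constant ratio within 0.1% for 26755 genes, and was not used further. Counts were tested with edgeR 4.0.16 in R 4.3.3 (filterByExpr defaults, TMM, quasi-likelihood F test, two-sided, 1 term per genotype, all 24 libraries, 16 residual degrees of freedom), after tests on simulated data. Intervals cover counting error only. Depth was 20.1 to 39.2 × 1e6 counts per library of the doubles.

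Alternatives were DESeq2 1.42.0, RLE factors, no filter, nuclear genes only, removed trends with exon length and GC content, a 2-fold threshold, fits of the compared genotypes alone, and leaving out each library. Members and lists were chosen with earlier results of these data known. Of 667 entries in 24 lists 650 matched by identifier with name, by a unique symbol or synonym, or, for the mutated loci, by identifier. 4 lists and the chloroplast genes were added after values had been seen. Named genes are the 4 mutated loci, the 12 largest called in each direction with a symbol, a mean log2 CPM of at least 1 and no overlap, up to 4 per list by smallest p, the 6 largest interactions in each direction, and genes at 0 counts in 1 double. Other list members, markers, the genes over 16-fold and the motifs were chosen after their values were seen. Sequences were read from TAIR10.1 with RefSeq annotation.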

Additional observations from a re-analysis of the deposited data

Results flagged for a closer look

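For 18 of the named genes the exchange of pat1-1 for path1-4 gave a different result with path2-1 than without it, by the interaction test. The named genes include the 6 largest called interactions in each direction, so the calls of those genes follow from how they were chosen. Over all genes tested 375 (1.84%) were called. The values are log2 differences, the doubles minus the singles. Higher in the doubles were SQS2 (5.64), ARP9 (2.33), HSP70T-2 (1.47), SHL1 (1.17), EMB2219 (1.12), OTP43 (1.09), CAF1a (1.06), MKS1 (0.75), PSAF (0.60), PSAD-1 (0.60) and BZR1 (0.39). Lower were PDF1.3 (-4.18), scpl31 (-3.25), PAP85 (-2.68), BGLU45 (-2.06), CYP71B36 (-1.92), UGT71B5 (-1.82) and ARR16 (-0.84). The calls for SQS2, ARP9, SHL1, PDF1.3, scpl31, PAP85 and BGLU45 held under every alternative run, and the other 11 each ended under at least 1. Of these, CYP71B36 lost its call without pat1-1path2-1 replicate 1 (adjusted p = 0.0547).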

How the results depend on the processing

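No alternative reversed a called value among 186 genes called in the double mutants or 18 in the interaction. Of the 186 genes, 81 were called in every fit, 105 lost the call in at least 1 fit without a library, 24 with length and GC trends removed, 4 with DESeq2 and 3 with RLE factors. The alternatives for both comparisons with the control were added after seeing the data. Without 1 library the calls between the doubles ranged from 2006 to 2956, the higher ones from 1068 to 1466 and the lower ones from 902 to 1490. The single comparison ranged from 1861 to 3230 and the interaction from 85 to 420. A 2-fold threshold left 402 genes (193 higher, 209 lower) between the doubles, 597 between the singles, 81 in the interaction, and 1208 and 465 for pat1-1path2-1 and path1-4path2-1 against the control. A fit of the singles alone called 1460, and DESeq2 called 656 in the interaction. No paired analysis was possible because the groups share no replicate numbers in the labels. Values under about 1 CPM rest on few counts.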
